A study of Mus musculus with 16 samples.

Results

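The genes described here are interleukins, members of the tumour necrosis factor (TNF) family, colony stimulating factors, interferons and their receptors, measured in whole mouse lung after exposure to an allergen. They were taken by their gene symbols, which had to begin with Il and a digit, Tnf, Csf and a digit, Ifn, Lif, Osm, Crlf or Tslp. The array carried 138 such genes. Gene names could be tied to values for 93 of them, among 9866 genes in all, and 54 of the 93 exceeded the background of log2 4 on at least 4 of the 16 arrays and were tested with the other genes, 7276 in all. The 45 genes without a usable name, among them Il4, Il5, Il6, Il9, Il10, Il1b, Tslp, Il7r, Il1r1, Osm, Ifngr1 and Ifnar1, were not analysed here, nor was Il1rl1, the receptor of interleukin 33.

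Cytokines are secreted or membrane-bound proteins by which immune and tissue cells instruct each other through matching receptors. Most interleukin, interferon and colony stimulating factor receptors signal through Janus kinases and STAT proteins, receptors of the interleukin 1 family signal through MyD88 to NF-kB, and TNF receptors signal through TRAF proteins to NF-kB or to caspases. In allergic airway inflammation, interleukin 33 and thymic stromal lymphopoietin are alarmins released by barrier tissue, which act on lymphocytes, mast cells and dendritic cells to favour the type 2 cytokines interleukins 4, 5 and 13. Many TNF family pairs act between T cells, B cells and antigen-presenting cells.

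Affymetrix arrays measured total RNA of whole lung in 4 groups of 4 samples. The groups were BALB-RAG lungs exposed to OVA (ovalbumin, the egg white allergen), BALB-RAG lungs exposed to phosphate-buffered saline (PBS), BALB/c lungs exposed to OVA and BALB/c lungs exposed to PBS, all harvested on day 22, the day after the last exposure. The labels give no age, sensitisation scheme or allele, do not spell out BALB-RAG, and do not say that replicates came from separate animals, so that the spread behind each p-value is one between samples and may be a technical one. RAG commonly stands for the recombination activating genes, without which mature T and B cells do not form. In whole lung, fewer cells of a type and less RNA per cell cannot be told apart.

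Lymphocyte transcripts did not match every BALB-RAG title. The mean log2 intensity of 12 T cell genes was 3.25, 4.83, 3.56 and 3.46 on BALB-RAG OVA arrays 1 to 4 and 4.09 to 4.52 on the BALB-RAG PBS arrays, against 4.77 to 6.28 on BALB/c OVA and 4.06 to 4.45 on BALB/c PBS arrays. For 9 B cell genes it was 3.64, 5.74, 3.82 and 3.77 on the BALB-RAG OVA arrays and 4.60 to 5.20 on the BALB-RAG PBS arrays, against 6.51 to 7.55 on BALB/c OVA and 5.64 to 5.99 on BALB/c PBS arrays. The array titled BALB-RAG OVA replicate 2 thus stood apart from the others of its title, and the main results that use it are given with and without it. It was set apart by lymphocyte genes, so leaving it out lowers such genes in its group by the choice itself. The T cell genes on BALB-RAG PBS arrays overlapped those on BALB/c PBS arrays. A list of 7 muscle and adipose genes lay at 7.05 to 9.74 on BALB-RAG OVA arrays and 6.92 to 9.68 on BALB-RAG PBS arrays, against 5.14 to 5.62 on BALB/c OVA and 5.90 to 8.38 on BALB/c PBS arrays. The 7 lung epithelial genes tested, which include Sftpc, lay at 10.73 to 10.95, 10.47 to 10.83, 10.82 to 11.03 and 10.65 to 11.06 in the same order of groups. Array medians spanned an intensity of 18.2 to 20.5, and the number of arrays limits the precision.

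**Figure D1:**
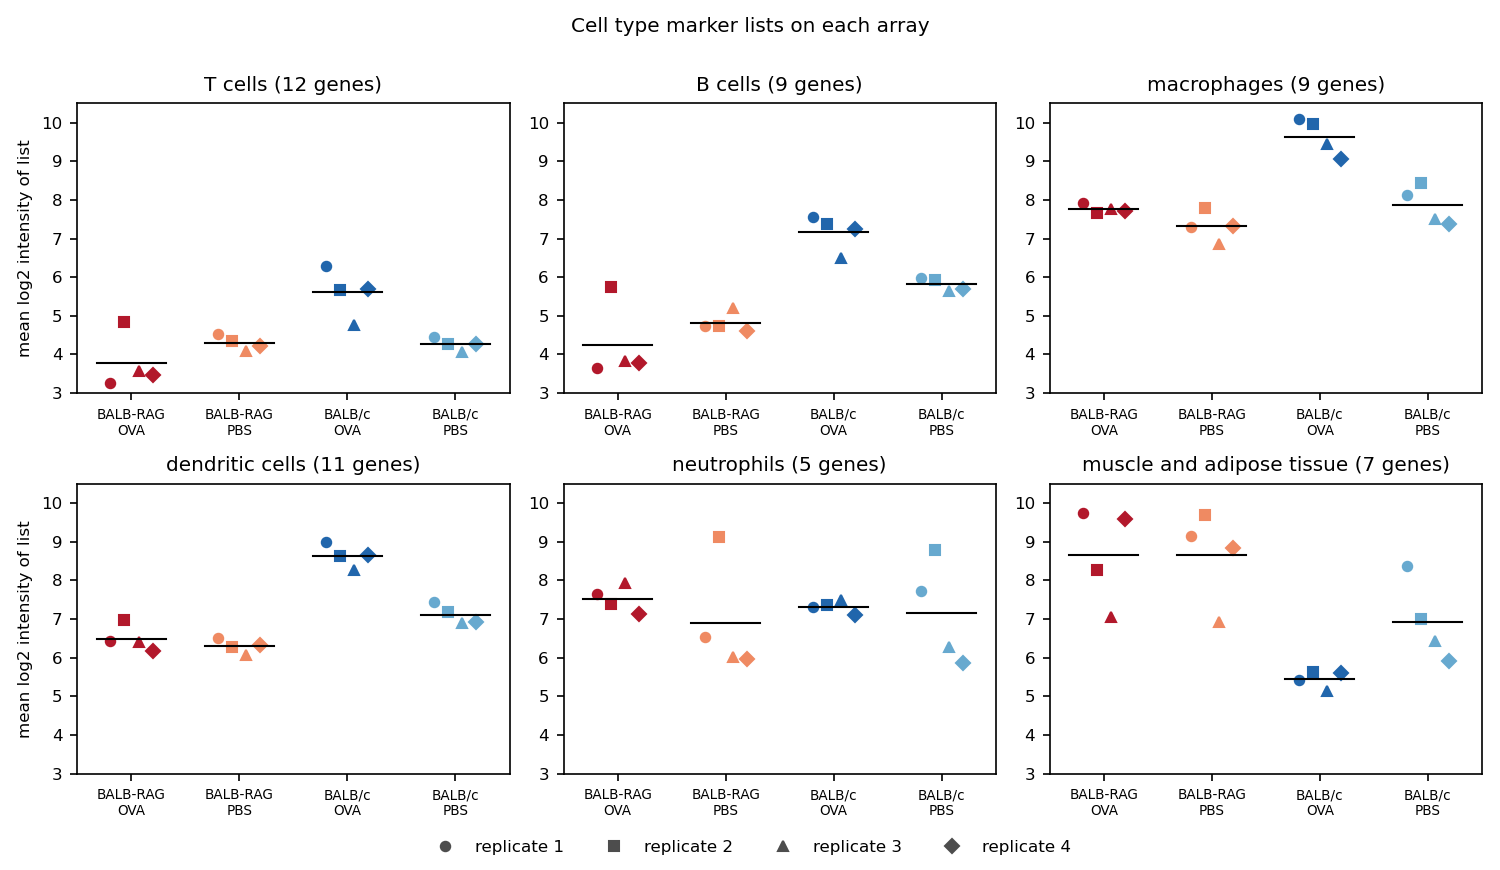
Mean log2 intensity (vertical axis) of 6 cell type marker lists on each of the 16 arrays, by group (horizontal axis), with a symbol for each replicate number and a bar for the group mean. BALB-RAG OVA replicate 2 lies at 4.83 for T cells and 5.74 for B cells, above the other arrays of its group, and macrophage genes lie at 9.05 to 10.10 in BALB/c OVA, above the other 3 groups.

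In BALB/c lungs, OVA was followed by higher levels of receptors and ligands from several cytokine families. Of the 54 members, 16 rose and 1 fell (limma, adjusted p under 0.05 over all genes tested), against 8.73% of all tested genes that rose and 6.78% that fell. The rises took in the alarmin Il33 and the TSLP receptor chain Crlf2, the interleukin 1 receptor antagonist Il1rn, the receptors of macrophage and granulocyte-macrophage colony stimulating factors, and 5 of 10 tested TNF receptors. The median log2 difference was 0.32 over the members and 0.0 over all genes. The OVA group was wholly above the PBS group for 16 members, against 10.4% of all genes, and wholly below it for 2, against 9.24%. Markers of other cells moved beside them: 9 of 11 dendritic cell genes rose, Cd86 by 2.05 ± 0.13 on the log2 scale (limma adjusted p = 6.95e-08), with a list mean of 8.26 to 8.99 on BALB/c OVA arrays, against 6.89 to 7.43 on BALB/c PBS arrays, and Cd80 under the background on all arrays. Of 8 endothelial genes 3 fell, Cldn5, Eng and Tek, with a list mean of 9.28 to 9.93 on BALB/c OVA arrays, against 10.08 to 10.28 on BALB/c PBS arrays. The dendritic cell genes that rose included Cd74, H2-Aa, H2-Ab1 and H2-Eb1, and which cells of the whole lung carried them was not measured. The part of either list in the members' changes was not tested.

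Il33, the alarmin of epithelial and stromal cells, had log2 intensities of 10.57, 10.70, 10.26 and 10.47 in BALB/c OVA lungs, against 9.44, 9.33, 9.0 and 9.05 in BALB/c PBS lungs. Every OVA array was above every PBS array, and the level rose 2.46-fold (log2 difference 1.30 ± 0.23 SE, limma adjusted p = 0.00114). Crlf2, which pairs with the interleukin 7 receptor chain to bind TSLP, had 9.22, 8.99, 8.33 and 8.30 in BALB/c OVA lungs, against 7.95, 8.08, 7.36 and 7.49 in BALB/c PBS lungs. These groups did not overlap either, although the pair of arrays numbered 1 and 2 was higher than the pair numbered 3 and 4 under both exposures, and Crlf2 rose 1.99-fold (log2 0.99 ± 0.21, limma adjusted p = 0.00467). The other tested members of this group were Il4ra and Il13ra1, the chains of the interleukin 13 receptor, Il5ra, the interleukin 5 receptor chain of eosinophils, and Il3ra. None of these 4 passed the test. Il4ra differed by 0.41 ± 0.20 on the log2 scale (limma adjusted p = 0.209) and Il13ra1 by 0.21 ± 0.17 (limma adjusted p = 0.494). Il5ra had 4.22, 4.18, 4.78 and 4.21 in BALB/c OVA lungs, against 3.63, 3.83, 3.95 and 3.93 in BALB/c PBS lungs. It crossed the background with no overlap between the groups, at least 1.27-fold, and missed the threshold (limma adjusted p = 0.109), which it passed when BALB-RAG PBS replicate 3 was left out (limma adjusted p = 0.0367). The 2 eosinophil genes tested, Siglecf and Ltc4s, averaged 4.61 to 6.06 on BALB/c OVA arrays, against 4.65 to 6.12 on BALB/c PBS arrays, and neither was called.

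Within the interleukin 1 family, a natural inhibitor and an interleukin moved in opposite directions. Il1rn, whose product blocks the interleukin 1 receptor, had 8.10, 7.98, 5.96 and 5.68 in BALB/c OVA lungs, against 5.61, 5.45, 4.34 and 4.15 in BALB/c PBS lungs. The groups did not overlap, but OVA replicates 3 and 4 lay only just above the highest PBS array. Il1rn rose 4.12-fold (log2 2.04 ± 0.53, limma adjusted p = 0.0159), the largest rise among the members. The difference was 2.51 in replicates 1 and 2 and 1.58 in replicates 3 and 4. The call was lost when BALB/c OVA replicate 1 (limma adjusted p = 0.0592), BALB/c OVA replicate 2 (0.0628), BALB/c PBS replicate 3 (0.0516) or BALB/c PBS replicate 4 (0.0565) was left out. A second Il1rn probe set, mostly under the background, differed by 1.91 in the same direction. Il18, an interleukin 1 family cytokine that promotes interferon gamma production, had 5.77, 6.02, 6.23 and 6.10 in BALB/c OVA lungs, against 8.04, 7.81, 7.12 and 7.04 in BALB/c PBS lungs. Its OVA arrays lay close together, all below the PBS arrays, and it fell 2.77-fold (log2 -1.47 ± 0.27, limma adjusted p = 0.00134). It was the only member to fall, and in replicates 3 and 4 alone a log2 difference of -0.91 missed the threshold (limma adjusted p = 0.0531). Its receptor chain Il18r1 differed by -0.24 ± 0.24 (limma adjusted p = 0.605).

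The promoters of Il33, Il18, Il1rn and Tnfaip3, the NF-kB feedback inhibitor A20, are shown because these genes carry the contrasts between the groups and their windows hold the letters of STAT, AP-1 or NF-kB motifs. The windows run from 250 bases before to 50 after a transcription start in RefSeq (GRCm38.p6). They lie at chr19:29924863-29925162 on the plus strand, chr9:50554450-50554749 on the plus strand, chr2:24336610-24336909 on the plus strand and chr10:19015361-19015660 on the minus strand. Capitals mark matches on either strand to TTC and GAA with 3 or 4 bases of any kind between them (STAT), to TGANTCA (AP-1), to GGG and TTCC with 3 bases of any kind between them (NF-kB) and to GAGGAAGT (PU.1). No match overlaps another in these windows.
Il33: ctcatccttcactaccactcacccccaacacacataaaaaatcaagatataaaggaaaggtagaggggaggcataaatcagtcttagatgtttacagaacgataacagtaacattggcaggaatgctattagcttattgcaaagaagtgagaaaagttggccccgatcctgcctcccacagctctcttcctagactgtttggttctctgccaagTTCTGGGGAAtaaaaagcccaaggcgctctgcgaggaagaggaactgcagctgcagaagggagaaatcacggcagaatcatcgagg
Il18: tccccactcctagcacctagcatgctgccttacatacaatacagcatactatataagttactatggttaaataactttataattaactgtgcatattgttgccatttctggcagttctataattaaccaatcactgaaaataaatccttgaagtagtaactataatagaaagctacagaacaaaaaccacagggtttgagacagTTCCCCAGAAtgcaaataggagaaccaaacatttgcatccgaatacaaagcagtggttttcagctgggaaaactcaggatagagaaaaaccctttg
Il1rn: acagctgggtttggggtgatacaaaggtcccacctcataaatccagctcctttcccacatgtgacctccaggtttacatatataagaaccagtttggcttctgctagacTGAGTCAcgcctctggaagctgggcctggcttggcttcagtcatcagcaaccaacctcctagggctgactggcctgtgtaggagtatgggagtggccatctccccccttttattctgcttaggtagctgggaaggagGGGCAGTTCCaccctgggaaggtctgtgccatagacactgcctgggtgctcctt
Tnfaip3: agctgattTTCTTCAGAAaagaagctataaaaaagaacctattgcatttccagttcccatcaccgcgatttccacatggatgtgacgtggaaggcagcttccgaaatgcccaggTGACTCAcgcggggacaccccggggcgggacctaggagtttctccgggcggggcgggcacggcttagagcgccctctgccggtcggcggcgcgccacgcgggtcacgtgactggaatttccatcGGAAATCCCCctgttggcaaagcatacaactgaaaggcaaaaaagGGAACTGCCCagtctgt
With the start site at 0, the STAT spacing of 4 begins at -36 in Il33, which rose in BALB/c lungs, and at -46 in Il18, which fell. Il1rn holds an AP-1 match at -141 and an NF-kB match at -4, and Tnfaip3 holds a STAT spacing of 4 at -242, an AP-1 match at -136 and NF-kB matches at -12 and 33. These are the first-listed starts. Other listed Il1rn starts hold a STAT spacing of 4 and an NF-kB match but no AP-1 match. Another listed Tnfaip3 start holds an NF-kB match only. Of 27025 promoters of this length, 8.47% hold the STAT spacing of 3, 6.99% the spacing of 4, 7.93% AP-1, 5.52% NF-kB and 3.28% PU.1. Among 45 of the 54 tested members found in this collection the counts were 9, 7, 7, 7 and 0. Among the 10 found of the 16 that rose in BALB/c lungs they were 2, 1, 2, 1 and 0. The other promoters of these 10 that held a match were those of Tnfrsf1b (STAT spacing of 3, at -181), Tnfrsf18 (the same, at -99) and Lif (AP-1, at -228), while the first-listed promoters of Tnfrsf13b and Tnfrsf13c, both of which rose, held none of these letters.

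Of the colony stimulating factor genes, the receptor chains Csf1r, Csf2ra and Csf2rb rose, while the receptor Csf3r and the tested factors Csf1 and Csf2 did not pass the test. Csf1r, the receptor that sustains macrophages, had 8.98, 8.92, 8.79 and 8.61 in BALB/c OVA lungs, against 7.92, 7.96, 7.60 and 7.16 in BALB/c PBS lungs (2.24-fold, log2 1.17 ± 0.19, limma adjusted p = 0.000625). Csf2ra, the alpha chain of the granulocyte-macrophage factor receptor, had 9.43, 9.45, 8.21 and 8.24 in BALB/c OVA lungs, against 7.56, 7.89, 7.49 and 6.94 in BALB/c PBS lungs (2.58-fold, log2 1.36 ± 0.33, limma adjusted p = 0.00932). In both genes the groups were apart, and OVA replicates 1 and 2 were the highest arrays. Csf2rb, the signalling chain shared with interleukins 3 and 5, had 7.92, 8.27, 7.50 and 7.34 in BALB/c OVA lungs, against 6.22, 6.65, 5.77 and 6.14 in BALB/c PBS lungs, again with no overlap (2.95-fold, log2 1.56 ± 0.29, limma adjusted p = 0.00165). Csf2rb has a close mouse copy, Csf2rb2, which was not analysed here, and whether the probe set tells them apart was not tested. Among the ligands, Csf2 differed by 0.60 ± 0.21 with groups apart (limma adjusted p = 0.067; 0.0456 without BALB-RAG OVA replicate 3), Csf1 differed by 0.08 ± 0.16 (limma adjusted p = 0.834), and Csf3 stayed under the background on all arrays. Csf3r, the neutrophil receptor for Csf3, had 7.08, 7.04, 7.73 and 7.54 in BALB/c OVA lungs, against 8.47, 9.06, 7.06 and 6.39 in BALB/c PBS lungs. The PBS arrays lay both above and below the OVA arrays (log2 -0.40 ± 0.47, limma adjusted p = 0.661). Macrophage marker genes moved with these receptors: 7 of the 9 tested rose, and their mean level was 9.05 to 10.10 on BALB/c OVA arrays, against 7.37 to 8.45 on BALB/c PBS arrays. Siglec1 was under log2 4 on all arrays, and the part of the macrophage markers in the receptors' rise was not tested.

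In the TNF family, 1 of 3 tested ligands and 5 of 10 tested receptors rose, and none fell. Tnfsf9, the 4-1BB ligand of antigen-presenting cells, had 5.54, 4.69, 5.15 and 4.35 in BALB/c OVA lungs, against 4.22, 3.46, 3.30 and 2.91 in BALB/c PBS lungs. Only 1 PBS array reached the background, so the size of the rise depends on undetected values: it was 2.76-fold as measured (log2 1.47 ± 0.28, limma adjusted p = 0.00226) and 1.84-fold with values under the background set to it (log2 0.88 ± 0.19, limma adjusted p = 0.00409). Tnfsf9 was under the background in BALB-RAG lungs too. It thus met the filter only through the BALB/c OVA arrays, and its call is not independent of the filter. Tnfrsf13b, the B cell receptor TACI for the survival factor BAFF, had 6.10, 5.74, 5.93 and 5.70 in BALB/c OVA lungs, against 4.55, 4.54, 4.48 and 4.24 in BALB/c PBS lungs. Both groups were tight and far apart, and its adjusted p was the smallest among the members (2.67-fold, log2 1.42 ± 0.17, limma adjusted p = 5.88e-05). Tnfrsf13c, the main BAFF receptor of B cells, had 6.52, 6.39, 5.54 and 6.82 in BALB/c OVA lungs, against 4.96, 4.27, 5.63 and 5.18 in BALB/c PBS lungs. Here OVA replicate 3 fell below PBS replicate 3, and the rise was 2.47-fold (log2 1.31 ± 0.32, limma adjusted p = 0.0102). The 9 B cell markers averaged 6.51 to 7.55 on BALB/c OVA arrays, against 5.64 to 5.99 on BALB/c PBS arrays, 3 of the 9 rose, and Pax5 was under the background on all arrays. Their part in the rise of Tnfrsf13b and Tnfrsf13c was not tested.

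Tnfrsf1b, the TNF receptor 2 of leukocytes, had 8.16, 8.31, 7.90 and 7.59 in BALB/c OVA lungs, against 6.73, 7.16, 6.57 and 6.60 in BALB/c PBS lungs (2.33-fold, log2 1.22 ± 0.28, limma adjusted p = 0.00778). Its groups were apart, whereas Tnfrsf1a, the widely expressed TNF receptor 1, did not pass the test. Tnfrsf18, the GITR of regulatory and activated T cells, had 6.40, 5.92, 4.77 and 5.87 in BALB/c OVA lungs, against 4.99, 4.62, 3.98 and 4.61 in BALB/c PBS lungs. OVA replicate 3 overlapped the PBS arrays, and the rise was 2.28-fold (log2 1.19 ± 0.28, limma adjusted p = 0.00795). Tnfrsf4, the OX40 of activated T cells, had 5.77, 5.51, 5.64 and 5.24 in BALB/c OVA lungs, against 5.02, 4.80, 4.54 and 4.83 in BALB/c PBS lungs, with no overlap (1.67-fold, log2 0.74 ± 0.19, limma adjusted p = 0.0146). It lost the call without BALB/c OVA replicate 1 (limma adjusted p = 0.0511) or BALB/c PBS replicate 3 (0.0513). Il2rb, the receptor chain shared by interleukins 2 and 15, had 5.46, 4.76, 4.52 and 4.80 in BALB/c OVA lungs, against 4.64, 4.01, 3.82 and 2.94 in BALB/c PBS lungs. OVA replicate 3 overlapped PBS replicate 1, and the call (2.04-fold, log2 1.03 ± 0.33, limma adjusted p = 0.0474) was lost on leaving out any of 13 of the 16 arrays, with adjusted p up to 0.157. Of 12 T cell markers 7 rose, with mean levels of 4.77 to 6.28 on BALB/c OVA arrays, against 4.06 to 4.45 on BALB/c PBS arrays, while Trat1 and Foxp3 were under the background on all arrays. The part of these markers in the rise of Tnfrsf18, Tnfrsf4 and Il2rb was not tested.

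Tnfaip8, a regulator of cell death first found as a TNF-induced transcript, had 8.74, 9.04, 8.48 and 8.28 in BALB/c OVA lungs, against 7.61, 7.65, 7.31 and 7.07 in BALB/c PBS lungs (2.34-fold, log2 1.23 ± 0.20, limma adjusted p = 0.000709). Tnf itself had 4.77, 4.89, 5.02 and 4.96 in BALB/c OVA lungs, against 4.73, 4.86, 4.98 and 4.95 in BALB/c PBS lungs. These ranges nearly coincided (log2 0.03 ± 0.18, limma adjusted p = 0.946). Lif and Il17ra complete the 16 rises and are named after their values were seen. Lif, a ligand of gp130 receptors, was above the background in BALB/c OVA lungs, at 4.18, 4.46, 4.81 and 4.59, and below it in BALB/c PBS lungs, at 3.76, 3.59, 3.91 and 3.49. It rose at least 1.42-fold (log2 0.51 ± 0.12 with values under the background set to it, limma adjusted p = 0.0071). As measured, the limma adjusted p was 0.00284. Lif was below the background in BALB-RAG lungs too. It thus entered the test only through the group where it was high, and its call is not independent of the filter. Il17ra, the common chain of interleukin 17 receptors, had 7.61, 7.62, 8.14 and 8.52 in BALB/c OVA lungs, against 7.23, 7.72, 7.15 and 6.92 in BALB/c PBS lungs. PBS replicate 2 overlapped the OVA arrays. The difference of 0.72 ± 0.23 (limma adjusted p = 0.0443) was 0.14 within replicates 1 and 2 and 1.30 within replicates 3 and 4, and the call was lost on leaving out any of 10 of the 16 arrays, with adjusted p up to 0.135. A second Il17ra probe set, over the background on all 16 arrays, differed by 0.28, and the call was lost with the mean of all placed probe sets.

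The direction of all 17 called members was the same within replicates 1 and 2 and within replicates 3 and 4. They were called on these same arrays, so the shared direction was largely set by that choice and is no separate support. Crlf2, Csf1r, Csf2rb, Il33, Tnfaip8, Tnfrsf13b and Tnfsf9 kept their call under every alternative run on them, the pairs alone included.

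**Figure D2:**
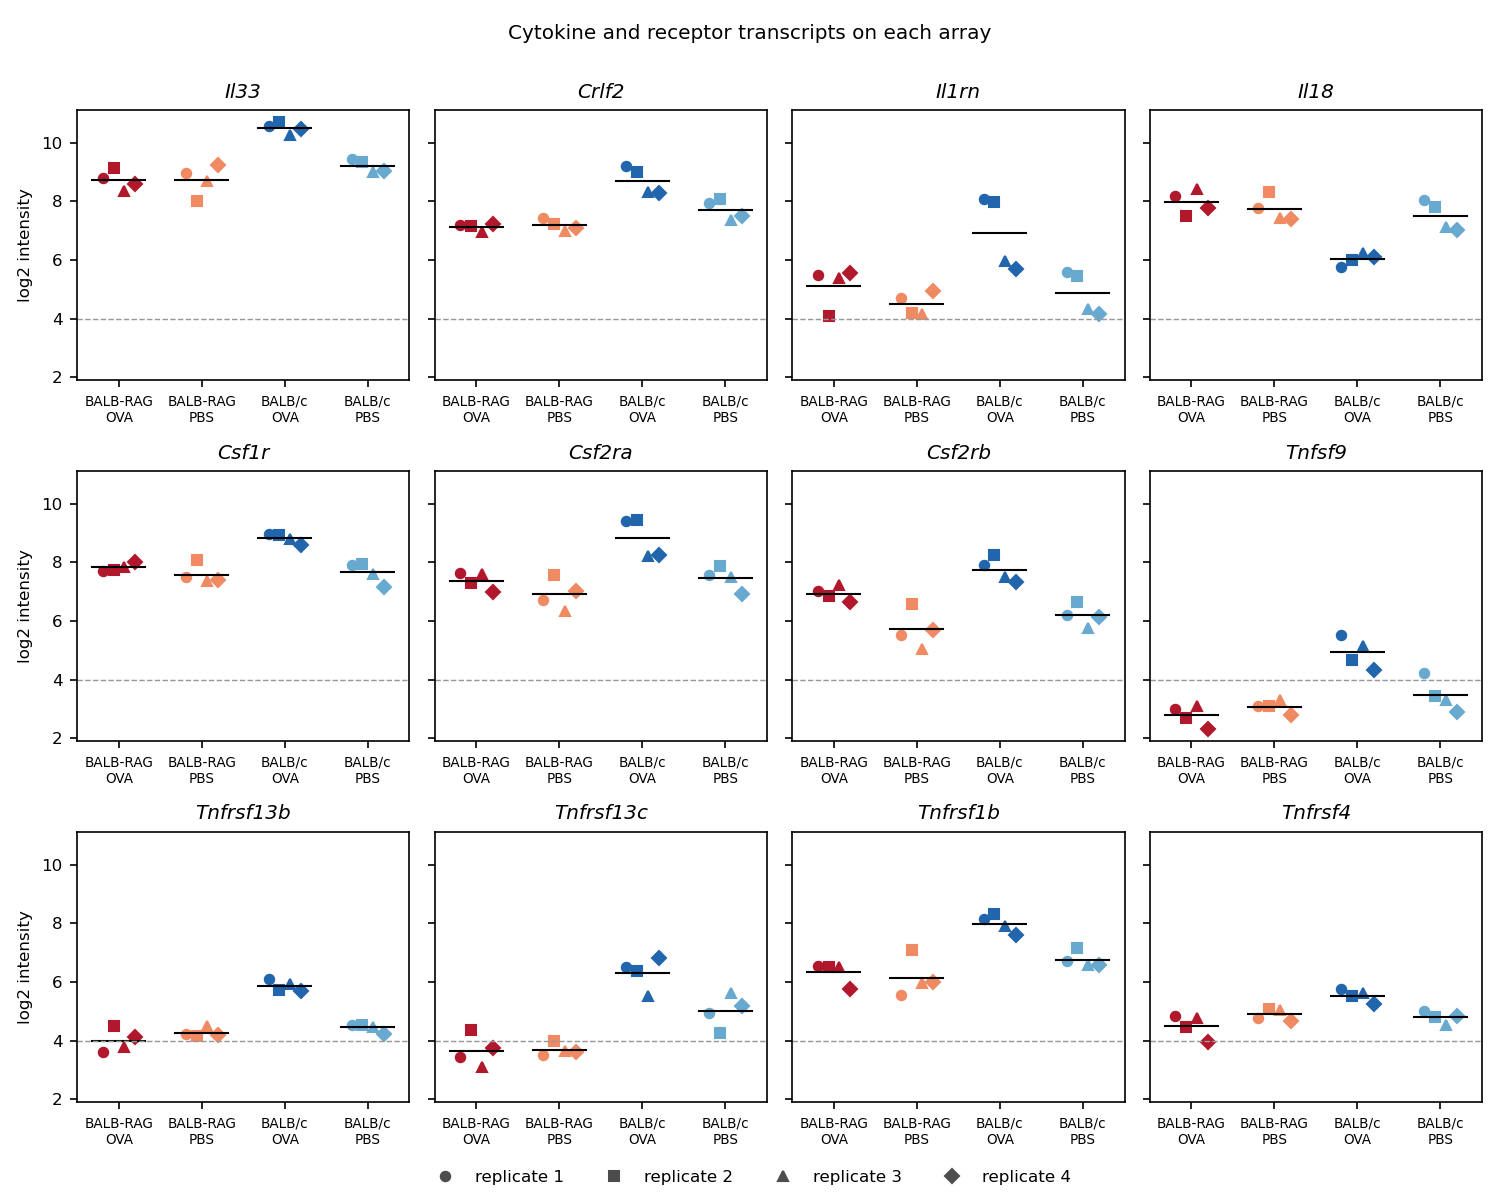
Log2 intensity (vertical axis) of 12 members on each array, by group (horizontal axis), with a symbol for each replicate number, a bar for the group mean and a dashed line at the background of log2 4. BALB/c OVA arrays lie above the other groups for Il33 (10.26 to 10.70) and Tnfrsf13b (5.70 to 6.10), and below them for Il18 (5.77 to 6.23).

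On arrays titled BALB-RAG, OVA was followed by no called change among the members. None of the 54 passed the threshold in limma, against 0.165% of all tested genes (12 of 7276), and 8 members had an unadjusted p under 0.05, against 7.72% of all genes. The OVA group was wholly above the PBS group for Csf2rb and Il1r2, 3.7% of members against 2.67% of genes. It was wholly below for Tnfsf10, 1.85% of members against 1.95% of genes. These shares, and the count of 0 called, are near those of all genes and do not set the members apart. The members' median log2 difference was 0.01, against 0.02 over all genes. The count stayed at 0 without BALB-RAG OVA replicate 2.

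Csf2rb had 7.03, 6.85, 7.22 and 6.65 in BALB-RAG OVA lungs, against 5.54, 6.59, 5.04 and 5.71 in BALB-RAG PBS lungs. The OVA arrays all lay above the PBS arrays, of which replicate 2 came closest, and the log2 difference of 1.22 ± 0.29 missed the threshold (limma adjusted p = 0.112). Without BALB-RAG OVA replicate 2 it was 1.25 ± 0.32 (limma adjusted p = 0.147), and without BALB-RAG PBS replicate 2 it was 1.51 ± 0.25 and passed (limma adjusted p = 0.0198). Tnfsf10, the death ligand TRAIL, had 6.01, 4.41, 5.23 and 4.06 in BALB-RAG OVA lungs, against 7.07, 6.36, 6.22 and 7.07 in BALB-RAG PBS lungs. Its OVA arrays spread over a wide range below the PBS arrays, and the log2 difference of -1.75 ± 0.35 came just short of the threshold (limma adjusted p = 0.0551). It passed without BALB-RAG OVA replicate 1 (log2 -2.11 ± 0.31, limma adjusted p = 0.0159) or without BALB/c OVA replicate 3 (limma adjusted p = 0.0492), and was -1.58 ± 0.38 without BALB-RAG OVA replicate 2 (limma adjusted p = 0.103). With a term for replicates 1 and 2 against 3 and 4, Csf2rb (log2 1.22 ± 0.24) and Tnfsf10 (-1.75 ± 0.34) both passed (limma adjusted p = 0.0288 for each). Tnfsf10 and the pair of genes that follow were picked after their values were seen.

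Il1r2, the decoy receptor that binds interleukin 1 without signalling, had 5.34, 4.88, 4.61 and 5.26 in BALB-RAG OVA lungs, against 3.19, 4.42, 4.04 and 2.93 in BALB-RAG PBS lungs (log2 1.38 ± 0.50, limma adjusted p = 0.432). Csf3r had 8.24, 8.16, 8.65 and 8.56 in BALB-RAG OVA lungs, against 6.94, 8.31, 7.14 and 6.87 in BALB-RAG PBS lungs (log2 1.09 ± 0.47, limma adjusted p = 0.574). Without BALB-RAG OVA replicate 2 these differences were 1.42 ± 0.56 and 1.17 ± 0.52 (limma adjusted p = 0.513 and 0.585). In BALB/c PBS lungs Il1r2 was high on replicates 1 and 2, at 5.18 and 5.82, and under the background on replicates 3 and 4, at 3.16 and 3.28. The 5 neutrophil genes tested averaged 7.65, 7.38, 7.92 and 7.13 on BALB-RAG OVA arrays, 6.54, 9.12, 6.01 and 5.96 on BALB-RAG PBS arrays, 7.30, 7.37, 7.49 and 7.10 on BALB/c OVA arrays and 7.72, 8.79, 6.28 and 5.85 on BALB/c PBS arrays. The PBS arrays highest in Csf3r and Il1r2, BALB-RAG replicate 2 and BALB/c replicates 1 and 2, were also the highest in neutrophil genes. BALB-RAG PBS replicate 3, with Il1r2 at 4.04, averaged only 6.01 for them. Of the 5, Lcn2 alone was called after OVA in BALB/c lungs (log2 3.37 ± 0.44, limma adjusted p = 0.00011), where the list median was -0.40. The part of these genes was not tested, and Mpo and Elane were under the background on all arrays.

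**Figure D3:**
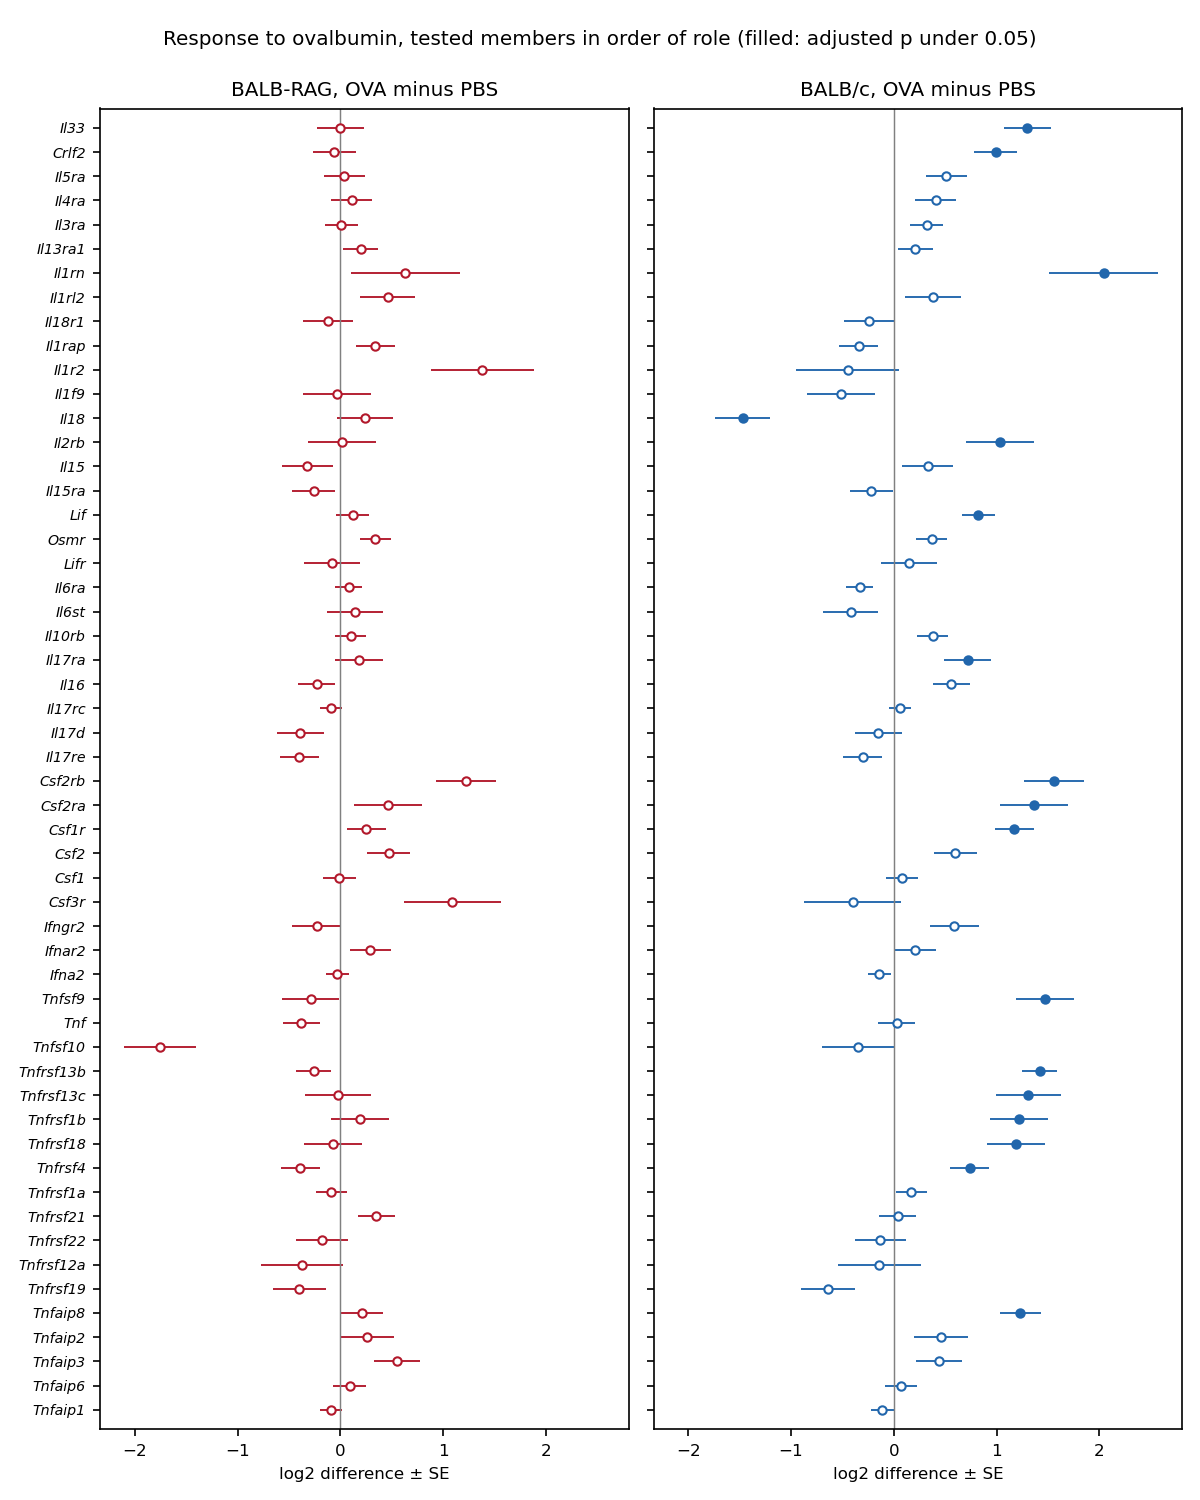
Log2 difference, OVA minus PBS (horizontal axis, with its standard error), of the 54 tested members in BALB-RAG (left) and BALB/c (right) lungs, ordered by role. Filled points passed the threshold: 0 in BALB-RAG and 17 in BALB/c, of which Il18 alone lies below 0.

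The test of the difference between the responses, BALB-RAG minus BALB/c, called 8 of the 54 members, against 8.49% of all tested genes. Of the 8, 7 were lower and 1 was higher, against 4.63% and 3.86% of genes. Tnfsf9 was under the background on all BALB-RAG arrays, so it has no measured response there. It entered the test only through the BALB/c OVA arrays, so its call here was partly set by the filter. Its fitted difference was -1.76 ± 0.40 (limma adjusted p = 0.0126) and became -0.88 ± 0.26 with values under the background set to it (limma adjusted p = 0.0485). For Tnfrsf13b the responses were -0.26 ± 0.17 in BALB-RAG and 1.42 ± 0.17 in BALB/c lungs, with a difference of -1.67 ± 0.24 (limma adjusted p = 0.000533; -1.52 ± 0.20 with the same floor). Il33 averaged 8.73 in both BALB-RAG OVA and BALB-RAG PBS lungs, and its responses differed by -1.30 ± 0.32 (limma adjusted p = 0.0209). Tnfrsf4 differed by -1.13 ± 0.27 (limma adjusted p = 0.016), and Il18, the gene that fell in BALB/c lungs, by 1.71 ± 0.38 (limma adjusted p = 0.01). The responses of Crlf2, Tnfaip8 and Csf1r differed by -1.05 ± 0.30, -1.01 ± 0.29 and -0.92 ± 0.27 (limma adjusted p = 0.0416, 0.0397 and 0.0461). These last calls were lost on leaving out any of 11, 10 and 11 of the 16 arrays in the same order, with adjusted p up to 0.0924, 0.088 and 0.0948.

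Without BALB-RAG OVA replicate 2 8 members were again called, of which 5 were the same. The differences were -1.83 ± 0.21 for Tnfrsf13b, -1.44 ± 0.32 for Il33, -1.12 ± 0.29 for Tnfrsf4 and 1.87 ± 0.37 for Il18 (limma adjusted p = 9.44e-05, 0.0126, 0.0288 and 0.00645), and Tnfsf9, undetected in BALB-RAG, kept its call (limma adjusted p = 0.0229). Those of Crlf2, Tnfaip8 and Csf1r then missed the threshold (limma adjusted p = 0.0609, 0.0602 and 0.0757). Il16, Tnfrsf13c and Lif passed it instead (limma adjusted p = 0.0433, 0.0366 and 0.0299), against 0.075, 0.0816 and 0.0744 with all arrays. Tnfrsf13c is a B cell gene and was highest of its group on the array left out, so its larger difference followed from that choice. Lif was under the background in BALB-RAG lungs and has no measured response there. Within each pair of replicates all 8 members called with all arrays kept their direction, which their choice on these same arrays largely set. Il18 was called in each pair, Tnfrsf13b and Il33 in replicates 3 and 4 only, Crlf2 in replicates 1 and 2 only, and Tnfsf9, Tnfrsf4, Tnfaip8 and Csf1r in neither. Il1rn, the largest rise in BALB/c lungs, responded by 0.63 ± 0.53 in BALB-RAG lungs, and its responses did not differ beyond the threshold (log2 -1.41 ± 0.75, limma adjusted p = 0.31). The same held for Csf2rb (log2 -0.34 ± 0.41, limma adjusted p = 0.72).

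After OVA, many members stood lower in BALB-RAG than in BALB/c lungs. Of 54, 22 were lower and 1 was higher, against 12.1% and 11.6% of all tested genes, and the median log2 difference was -0.45, against 0.01 over all genes. All BALB-RAG arrays lay below all BALB/c arrays for 25 members, against 13.6% of genes, and above them for 5, against 13.3%. Without BALB-RAG OVA replicate 2, 19 members were lower and 1 was higher, against 11% and 10.6% of genes, and the median was -0.49. The BALB/c OVA arrays are those that entered the OVA response above, so these values are not independent of it.

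Tnfrsf13c had 3.43, 4.37, 3.12 and 3.75 in BALB-RAG OVA lungs, against 6.52, 6.39, 5.54 and 6.82 in BALB/c OVA lungs (log2 -2.65 ± 0.32, limma adjusted p = 2.48e-05). Tnfrsf13b had 3.63, 4.49, 3.78 and 4.13 in BALB-RAG OVA lungs, against 5.70 to 6.10 in BALB/c OVA lungs (log2 -1.86 ± 0.17, limma adjusted p = 2.57e-06). In both genes BALB-RAG OVA replicate 2, the array with high B cell markers, was the highest of its group, and both calls were kept without it (limma adjusted p = 1.69e-05 and 6.14e-07). Tnfrsf13c was then under the background on all 3 remaining BALB-RAG OVA arrays and at least 4.98-fold lower. Because that array was chosen by its B and T cell genes and was the highest for both receptors, leaving it out had to enlarge these differences. With values under the background set to it, the differences over all arrays were -2.23 for Tnfrsf13c and -1.71 for Tnfrsf13b. Tnfsf9 was under the background on every BALB-RAG OVA array, at 3.02, 2.71, 3.12 and 2.32. It was at least 1.91-fold lower than in BALB/c OVA lungs (log2 -0.94 ± 0.19 with values under the background set to it, limma adjusted p = 0.0016). As measured, the limma adjusted p was 5.98e-05, and 0.000273 without replicate 2. Tnfsf9 entered the test only through the BALB/c OVA arrays, so its lower level in BALB-RAG was partly set by the filter. Il33 had 8.79, 9.15, 8.36 and 8.61 in BALB-RAG OVA lungs, all below the BALB/c OVA arrays (log2 -1.78 ± 0.23, limma adjusted p = 4.88e-05; -1.92 ± 0.24 without replicate 2). Crlf2 had 7.21, 7.16, 6.96 and 7.23 in BALB-RAG OVA lungs, all below the BALB/c OVA arrays (log2 -1.57 ± 0.21, limma adjusted p = 7.24e-05; -1.58 ± 0.24 without replicate 2).

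Il1rn had 5.49, 4.09, 5.39 and 5.56 in BALB-RAG OVA lungs, with replicate 2 far below the lowest BALB/c OVA array and the others just below it (log2 -1.80 ± 0.53, limma adjusted p = 0.0221). Its difference was -3.25 within replicates 1 and 2 and -0.34 within replicates 3 and 4. The call was lost without BALB-RAG OVA replicate 2 (log2 -1.45 ± 0.54, limma adjusted p = 0.0725), BALB/c OVA replicate 1 (0.0834) or BALB/c OVA replicate 2 (0.0822). Tnfrsf1b had 6.56, 6.53, 6.51 and 5.75 in BALB-RAG OVA lungs, with replicate 4 apart from the others and all below BALB/c OVA (log2 -1.65 ± 0.28, limma adjusted p = 0.000545; -1.71 ± 0.31 without replicate 2). Csf2ra had 7.65, 7.29, 7.59 and 6.98 in BALB-RAG OVA lungs, below BALB/c OVA without overlap (log2 -1.46 ± 0.33, limma adjusted p = 0.00387; -1.43 ± 0.36 without replicate 2). Its difference was -1.97 within replicates 1 and 2 and -0.94 within replicates 3 and 4, where it was not called. Il4ra, which had not passed in the OVA response, had 6.98, 7.40, 7.66 and 7.51 in BALB-RAG OVA lungs, against 8.23, 8.07, 7.95 and 8.14 in BALB/c OVA lungs (log2 -0.71 ± 0.20, limma adjusted p = 0.018; 0.0365 without replicate 2). It lost the call without BALB-RAG OVA replicate 1 (limma adjusted p = 0.0651) or BALB/c OVA replicate 1 (0.0538). The other calls are given to complete the count, having been chosen once their values were known. The log2 difference was -1.07 ± 0.24 for Ifngr2, the signalling chain of the interferon gamma receptor, -0.88 ± 0.25 for Il15, a survival factor of NK and memory T cells, -0.79 ± 0.18 for Il16, a T cell attractant, and -1.06 ± 0.35 for Tnfsf10 (limma adjusted p = 0.00362, 0.0154, 0.00502 and 0.0413). Without BALB-RAG OVA replicate 2 they were -0.99, -0.74, -0.91 and -0.88, and Il15 and Tnfsf10 were no longer called (limma adjusted p = 0.0519 and 0.116). Tnfsf10 lost its call on leaving out any of 7 of the 16 arrays, with adjusted p up to 0.143. Il2rb (-1.20; -1.50 without replicate 2, limma adjusted p = 0.00263) and Il17ra (-0.78; -0.77 without replicate 2, limma adjusted p = 0.0435) lost theirs without BALB-RAG OVA replicate 1 (limma adjusted p = 0.0527 and 0.0693), Il2rb also without BALB/c OVA replicate 1 (0.0586) and Il17ra also without BALB/c OVA replicate 4 (0.0626). Tnfaip8 (-1.38), Tnfrsf18 (-1.33), Tnfrsf4 (-1.03) and Lif (at least 1.42-fold) kept theirs in every such fit. Lif entered the test only through the BALB/c OVA arrays, so its lower level in BALB-RAG was partly set by the filter. Csf1r was lower by a log2 difference of -0.99 ± 0.19 (limma adjusted p = 0.00125; 0.00439 without replicate 2). Macrophage markers averaged 7.67 to 7.93 on BALB-RAG OVA arrays, against 9.05 to 10.10 on BALB/c OVA arrays, and dendritic cell markers 6.17 to 6.97, against 8.26 to 8.99, with 7 of 9 and 11 of 11 genes lower. Of the T cell, B cell and NK cell markers, 10 of 12, 8 of 9 and 4 of 5 were lower as well. The 4 of the NK cell list were Klrc1, Gzma, Gzmb and Klra8, while Ncr1 did not pass. The 5 NK cell genes averaged 3.84 to 4.84 on BALB-RAG OVA arrays, against 5.22 to 7.70 on BALB/c OVA arrays. Which cells carried the listed genes was not measured, and the part of these lists in the lower members was not tested.

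Il18 was the only member called higher. It had 8.20, 7.49, 8.41 and 7.78 in BALB-RAG OVA lungs, against 5.77, 6.02, 6.23 and 6.10 in BALB/c OVA lungs (3.83-fold, log2 1.94 ± 0.27, limma adjusted p = 8.04e-05; 2.10 ± 0.27 without replicate 2). The BALB-RAG OVA arrays overlapped the PBS arrays of either line, 7.40 to 8.33 in BALB-RAG and 7.04 to 8.04 in BALB/c. Of the 7 muscle and adipose genes, 5 were also higher in BALB-RAG lungs after OVA, and their part was not tested. Csf3r and Il1r2 also lay above BALB/c OVA on every BALB-RAG OVA array without passing the test (limma adjusted p = 0.118 and 0.129; 0.138 and 0.166 without replicate 2).

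After PBS, 3 of 54 members were called lower in BALB-RAG lungs and none higher, against 1.94% and 1.97% of all tested genes (3.9% in either direction), with a median log2 difference of -0.19 against -0.01 over all genes. The BALB-RAG group was wholly below the BALB/c group for 3 members, a share of 5.56% that is near the 5.44% of all genes. It was wholly above for none, against 4.21%. Tnfrsf13c was under the background in BALB-RAG PBS lungs, at 3.52, 3.99, 3.65 and 3.60, against 4.96, 4.27, 5.63 and 5.18 in BALB/c PBS lungs. It was at least 2.02-fold lower (log2 -1.01 ± 0.27 with values under the background set to it, limma adjusted p = 0.0458). As measured, it was called with limma adjusted p = 0.028. The call was lost without BALB-RAG PBS replicate 1 (limma adjusted p = 0.0819) or 4 (0.0696), or without BALB/c PBS replicate 1 (0.0615), 3 (0.0883) or 4 (0.0727). B cell markers averaged 4.60 to 5.20 on BALB-RAG PBS arrays, against 5.64 to 5.99 on BALB/c PBS arrays. Tnfaip3, which limits NF-kB signalling, had 6.23, 6.81, 6.22 and 6.27 in BALB-RAG PBS lungs, against 7.47, 6.76, 7.51 and 7.95 in BALB/c PBS lungs. Replicate 2 of the lines overlapped, and the log2 difference was -1.04 ± 0.22 (limma adjusted p = 0.0142), -0.60 within replicates 1 and 2 and -1.48 within replicates 3 and 4. Osmr, the oncostatin M receptor of stromal and epithelial cells, had 8.70, 8.38, 8.64 and 8.97 in BALB-RAG PBS lungs, against 9.30, 9.40, 9.22 and 9.06 in BALB/c PBS lungs. Its groups were apart by a narrow margin (log2 -0.57 ± 0.15, limma adjusted p = 0.0487), and leaving out any of 14 of the 16 arrays ended the call, with adjusted p up to 0.138. Tnfaip3 and Osmr were also lower in BALB-RAG lungs after OVA (log2 -0.93 ± 0.22 and -0.60 ± 0.15, limma adjusted p = 0.00569 and 0.00882; -0.91 ± 0.25 and -0.54 ± 0.17 without BALB-RAG OVA replicate 2, limma adjusted p = 0.0151 and 0.0296).

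**Figure D4:**
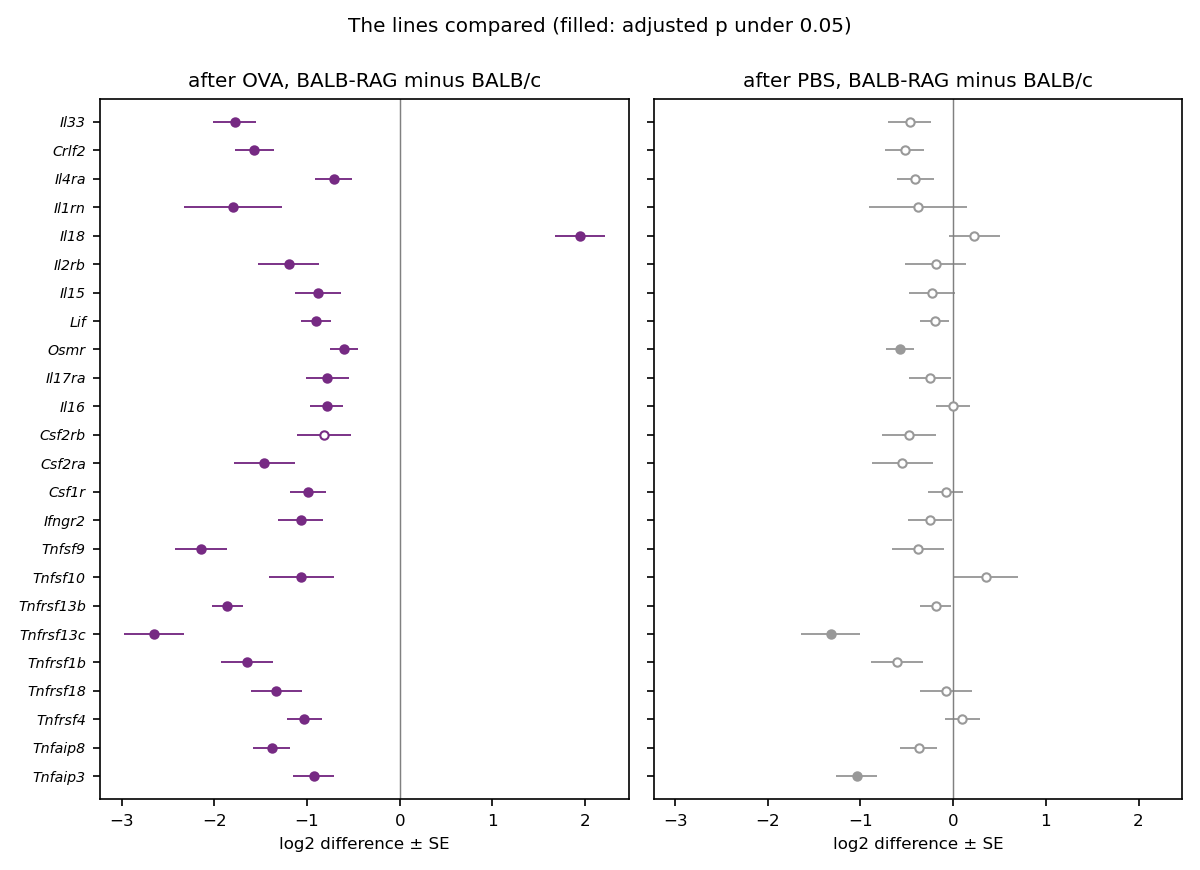
Log2 difference, BALB-RAG minus BALB/c (horizontal axis, with its standard error), after OVA (left) and after PBS (right), for the 24 members called in any of the 5 comparisons. Filled points passed the threshold: 22 lie below 0 and Il18 at 1.94 after OVA, and Tnfrsf13c, Tnfaip3 and Osmr lie below 0 after PBS.

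Several ligand and receptor pairs had 1 side under the background. Tnfrsf9, the receptor of Tnfsf9, lay at 1.83 to 2.03 on all arrays, and Tnfsf4, the ligand of Tnfrsf4, at 2.67 to 2.97, both under the background. Il18rap, the second chain of the interleukin 18 receptor, reached the background only in BALB/c OVA lungs, at 4.04, 2.97, 4.25 and 4.22, against 3.05 to 3.67 in BALB/c PBS lungs, and was not tested. Il17rb, which binds interleukin 25, reached it on BALB/c OVA replicate 3 (5.26) and BALB/c PBS replicate 4 (4.49), and its ligand Il25 on no array. Il13, the type 2 cytokine of goblet cell change, lay at 2.73 to 3.82, its decoy receptor Il13ra2 at 2.34 to 2.61, Ifng at 2.35 to 3.64 and Il17a at 2.61 to 3.43. A member under the background on this array was not detectable here, which does not show that it was absent from the lungs. Of the 54 tested members 30 were called in no comparison, with log2 differences of -0.64 to 0.60 after OVA in BALB/c lungs. They include gp130 (Il6st), the shared receptor of the interleukin 6 family, its partners Il6ra and Lifr, the interleukin 10 receptor chain Il10rb, the interferon receptor chain Ifnar2 and Il1rap, the shared chain of interleukin 1 and 33 receptors. In all, 31 of the 39 untested members exceeded the background on no array and 8 on 1 to 3 arrays.

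Some signalling genes downstream of these receptors were called in the same comparisons. Of 20 tested JAK, STAT and SOCS genes, 4 rose and none fell after OVA in BALB/c lungs, where 8.73% of all tested genes rose and 6.78% fell: Jak3, which serves the common gamma chain receptors, by 1.01 ± 0.19 on the log2 scale, Stat5a by 0.89 ± 0.26, Jak2 by 0.60 ± 0.12 and Tyk2 by 0.42 ± 0.13 (limma adjusted p = 0.00212, 0.0299, 0.00388 and 0.0434). Stat6, which carries the interleukin 4 and 13 signal, differed by 0.09 ± 0.12 (limma adjusted p = 0.704). Of 22 MyD88, TRAF and NF-kB genes, 6 rose and 1, the caspase 8 inhibitor Cflar, fell, and 15 did not pass. The 4 with the smallest p were Birc3 (0.83 ± 0.15), Casp8 (0.56 ± 0.13), Ikbke (1.32 ± 0.35) and Tank (0.58 ± 0.16), with limma adjusted p = 0.00122, 0.00876, 0.0163 and 0.0222. Among 9 related ligands and receptors outside the name rule, Ltb, the membrane anchor of lymphotoxin, rose by 1.54 ± 0.49 and Flt3, a receptor of dendritic cell precursors, by 1.31 ± 0.21, while the leptin receptor Lepr fell by 1.06 and the growth hormone receptor Ghr by 0.80 (limma adjusted p = 0.0431, 0.000605, 0.0106 and 0.0209). No gene of these 3 lists was called after OVA in BALB-RAG lungs by limma. Ltb differed by -0.76 on the log2 scale with all arrays (limma adjusted p = 0.816). Without BALB-RAG OVA replicate 2 it differed by -1.42 ± 0.29 (limma adjusted p = 0.0392). That array was chosen by its high lymphocyte genes, so the value of Ltb without it cannot be read as a response to OVA. Within the 3 lists, responses differed between the lines, BALB-RAG minus BALB/c, for Jak3 (log2 -0.97 ± 0.27), Ikbke (-2.07 ± 0.49), Flt3 (-1.09 ± 0.30) and Lepr (1.60 ± 0.37), with limma adjusted p = 0.0399, 0.0155, 0.0361 and 0.0131. Without BALB-RAG OVA replicate 2 they were -0.97, -2.34, -1.03 and 1.68, and Jak3 and Flt3 were no longer called (limma adjusted p = 0.0584 and 0.0644). After OVA, BALB-RAG lungs had 6 of the 20, 8 of the 22 and 2 of the 9 lower and 0, 0 and 2 higher than BALB/c lungs, where 12.1% of all genes were lower and 11.6% higher. Without replicate 2 they had 7, 8 and 2 lower and 0, 0 and 3 higher.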

How the data were processed

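Whole lung RNA was measured on 16 arrays. Per the labels' protocols it was isolated with TRIZOL and labelled with biotin, and per the submitters' processing notes the authors made the deposited values with GCRMA, with a version and build that are not stated here. The deposited intensity values span 2.32 to 35181 on a linear scale. Log2 was taken with no further normalisation.

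Labels in the deposited table did not sit beside their own values. Following the rule for these members, 14300 of 45101 labels were placed in 3 stretches, whose values lie 64 rows above, 47 rows below and 16168 rows below. For the stretch of 47 rows the rule names the rows above. Below was used, because probe sets of the same gene over log2 6 there had a median correlation of 0.618 (637 pairs), against 0.027 (440 pairs) above. Over all stretches the median was 0.635, against 0.115 as deposited. All gene names rest on this step. Symbols come from the platform annotation, and the 4 placed labels of members with several symbols were not used.

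The probe set with the highest mean stood for a gene, and 17 members had several. Genes over log2 4 on at least 4 arrays entered a limma model (limma 3.58.1, R 4.3.3) of the 4 groups on all 16 arrays, with 12 residual degrees of freedom and Benjamini-Hochberg adjustment at 0.05. Where a group lies under log2 4 throughout, its values are set to 4 and the fold is given as "at least". The p-values come from the values as measured unless values set to the background are named. The script was tested on simulated data. Members, lists and tests were chosen with earlier results of these data known. Named were the called members (the 12 largest rises and 8 largest falls where over 12), textbook members of allergic airway inflammation, members with an array apart, and from other lists the genes with the smallest p.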

Additional observations from a re-analysis of the deposited data

Results flagged for a closer look

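Of 207 sets of 4 arrays (a member in a group), 12 had 1 array far from the other 3, where chance gives about 1 in 20. These were Tnfaip2 on BALB-RAG PBS replicate 3 (log2 4.84, the others 5.50 to 5.56), Tnfrsf1b on BALB-RAG OVA replicate 4 (5.75), Il3ra on BALB/c PBS replicate 2 (5.24), Il6st on BALB-RAG OVA replicate 2 (6.97, the others 8.08 to 8.19), Il5ra on BALB/c OVA replicate 3 (4.78), Il6ra on BALB-RAG OVA replicate 3 (4.87), Il1rn on BALB-RAG OVA replicate 2 (4.09), Ifnar2 on BALB/c OVA replicate 3 (5.62) and Tnfaip3 on BALB-RAG PBS replicate 2 (6.81). Tnfaip6, a hyaluronan-binding protein, was high on BALB-RAG PBS replicate 3 (4.33), BALB/c OVA replicate 2 (4.84) and BALB/c PBS replicate 1 (4.84), all close to the background.

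The OVA responses differed between the lines (BALB-RAG minus BALB/c, log2) for Tnfsf9 (-1.76, with BALB-RAG under the background throughout), Tnfrsf13b (-1.67), Il33 (-1.30), Tnfrsf4 (-1.13), Crlf2 (-1.05), Tnfaip8 (-1.01), Csf1r (-0.92) and Il18 (1.71), as the limma test of the difference itself showed.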

How the results depend on the processing

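Alternatives changed the filter, the background, the probe set rule, centring, the intensity trend, the arrays fitted and the ends of the placed stretches. After OVA in BALB/c lungs 17 members were called, 13 to 18 when 1 array was left out. In BALB-RAG lungs 0 were called, 1 (Tnfsf10) with a filter at log2 5 or with arrays centred, 2 (Tnfsf10 and Csf2rb) with the replicate block or a term for the replicate pairs, and 0 to 1 with 1 array left out. The difference of responses had 8, then 5 in replicates 1 and 2 alone, 3 in replicates 3 and 4 alone, and 5 to 10 with 1 array left out. Between the lines after OVA there were 23, then 12 in replicates 3 and 4 alone and 19 to 26 with 1 array left out. After PBS there were 3, then 1 with only the groups compared or with replicates 3 and 4 alone, and 1 to 3 with 1 array left out. Fewer arrays enter the fits on a pair alone; for the other settings the cause was not tested. Csf2 between the lines after OVA turned to 0.62 in replicates 1 and 2 alone (limma adjusted p = 0.0354), against -0.03.

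Replicate numbers do not pair the samples by the labels: same-numbered arrays had correlations of their deviations of 0.025 to 0.497, and 6 of 16 arrays were closest to their own number. With the replicate block 22 members and 1764 genes (1128 without the block) were called for BALB/c OVA, 2 members and 41 genes (12) for BALB-RAG OVA, 12 and 1152 (618) for the difference, 31 and 2453 (1729) between the lines after OVA, and 4 and 609 (284) after PBS. Il5ra passed for BALB/c OVA with the block (limma adjusted p = 0.0343). Arrays of the same pair of replicate numbers deviated together (median correlation 0.3135). Deviations from the group mean cancel within each group, so the opposite sign between different pairs (-0.316) follows from this and is no separate observation. The 4 arrays a group limit what can be called, and members under the background have no measured difference.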

Other observations

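Epithelial cytokines of the interleukin 1 family stood out on 1 array. Il1f6, an agonist in skin and airway epithelium, was 6.30 on BALB-RAG PBS replicate 2 and 4.95 on BALB-RAG OVA replicate 1, and under log2 4 on the other 14 arrays. Il1f5, an antagonist at the same receptor, was 5.20 on BALB-RAG PBS replicate 2 and 2.64 to 3.37 elsewhere, and Il1f9, another agonist, was 6.23 there, against 4.41 to 5.95 elsewhere. On the same array 7 of the 7276 tested genes exceeded every other array by more than 2 on the log2 scale, and 0 did so on any other array. They included the platelet genes Gp1bb (8.71, highest elsewhere 6.14) and Ppbp (11.62, elsewhere up to 9.56) and the red cell gene Slc4a1 (10.99, elsewhere up to 8.88). Whether these go with the higher Il1f genes was not tested.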
